A study of Mus musculus with 24 samples.

Results

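The aminoacyl-tRNA synthetases join each amino acid to its tRNA before translation. The group taken here was the nuclear genes for cytosolic and mitochondrial enzymes of this kind, chosen by gene symbol and not by any measured value. The genes reported were 36, 20 cytosolic and 16 mitochondrial, among the 23787 genes with a symbol on the array, and each of the 36 had a probe that passed the filter on dim signals, as did 16842 genes in all. The cells were TM3, an established line of mouse Leydig cells, the cells of the testis that make androgens. RNA was taken from sham-treated cells at 0, 4 and 24 h (S0, S4 and S24) and from cells exposed in suspension to nanosecond pulsed electric fields (nsPEF) at the same times (E0, E4 and E24), and each of the 6 groups had 4 biological replicates, with a one-colour array for each. The exposure was 80 pulses of 60 ns at 14 kV/cm, given at 26.4 pulses per minute over 180 s, and the sham cells went through the same washing, straining and loading into cuvettes without pulses.

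The genes with a 2 at the end of their symbol encode the enzymes that charge tRNAs in the mitochondria, where the small set of proteins encoded by mitochondrial DNA is made. The other genes encode the cytosolic enzymes. The products of Gars and Kars are known to serve both compartments. Several cytosolic enzymes sit in a multi-synthetase complex held together by the scaffold proteins Aimp1, Aimp2 and Eef1e1. Transcription of many cytosolic synthetase genes is known to rise through the factor ATF4 when amino acids run short or the endoplasmic reticulum is stressed.

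Levels are log2 signals relative to the 75th percentile of the same array, so that 0 stands for that percentile, and differences between groups are differences of these values. Gene positions are those of build GRCm38.p6 in RefSeq. A level is comparable between arrays for a gene's own probe, but not between genes. A gene was called where its adjusted p was under 0.05 in a fit across all 37684 tested probes. Each slide carried all 8 arrays of 1 time, so differences with time cannot be told apart from differences between slides. Handling also differed with time. The paper describes long preparation just before the 0 h samples, with detachment, centrifugation, filtering and a new medium, and a quick harvest at 4 h and 24 h. Differences between 0 h and the later times cannot be told apart from this handling. Sham arrays lay in the first row of each slide and nsPEF arrays in the second, so treatment and place on the slide cannot be told apart either. The share of probes well above background was 53.9% to 55.3% as a group mean in nsPEF and 58.8% to 59.9% in sham. Of 10 Leydig cell markers 5 were tested. Cyp11a1, Hsd3b1, Lhcgr and Hsd17b3 did not pass the filter and Insl3 had no probe. Among 16 markers of Sertoli, germ, macrophage and endothelial cells, 9 did not pass, and these were Amh, Dhh, Cldn11, Fshr, Sycp3, Ptprc, Adgre1, Cdh5 and Tek. The 2 macrophage markers that passed, Cd68 and Csf1r, had a summed signal, in multiples of the 75th percentile, of 2.47 to 3.29 at 0 h, 4.78 to 5.78 at 4 h and 1.64 to 1.88 at 24 h. From 0 h to 4 h Csf1r rose, by 1.65 in sham and 2.13 in nsPEF on the log2 scale, whereas Cd68 fell, by 0.91 and 0.97. The only Sertoli marker that passed, Sox9, was at 0.864 to 1.13 at 0 h, 0.293 to 0.459 at 4 h and 0.0866 to 0.28 at 24 h. This sum was 0.15 to 0.291 at 0 and 4 h and 0.102 to 0.163 at 24 h for the 3 germ cell genes. For the endothelial Pecam1 it was 0.106 to 0.174 at 0 h, 0.0767 to 0.119 at 4 h and 0.159 to 0.218 at 24 h. For the 5 Leydig genes it was 3.87 to 6.64, 3.8 to 4.85 and 2.98 to 4.38. The Leydig sum was mostly Cyp17a1, at 2.26 in S0 on the log2 scale, with the other 4 genes at -3.11 to -2.08. From 0 h to 4 h in sham Star rose by 0.91, Inha and Cyp17a1 fell by 1.19 and 0.45, and Nr5a1 and Gata4 were not called. The part of these cell types in the time differences below was not tested.

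The first question was how the synthetase mRNAs changed with time in sham cells. From 0 h to 4 h cytosolic genes rose more often than they fell, and mitochondrial genes fell more often than they rose. Of the 20 cytosolic genes 11 rose, 5 fell and 4 were not called. Of the 16 mitochondrial genes 4 rose, 9 fell and 3 were not called. Over all genes tested 30.8% rose and 34.6% fell in this comparison, so the rising share was above that level for the cytosolic class and the falling share was above it for the mitochondrial class. The median log2 difference was 0.19 for the cytosolic class, -0.23 for the mitochondrial class and -0.04 over all genes tested. In RNA from whole cultures a change in the share of cells that express a gene and a change in RNA per cell cannot be told apart.

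The mean signal of each class on each array was followed as well. The cytosolic mean was 4.19 ± 0.024 (SD, n = 4) in S0, 4.38 ± 0.049 in S4 and 4.07 ± 0.035 in S24. The 4 S4 arrays, from 4.31 to 4.43, lay above all S0 arrays, which ended at 4.21. The mitochondrial mean was taken over the 14 genes with a value on every array. Nars2 (difference of 0.43, not called) and Wars2, which rose, were left out of it, since each had a marked spot on 1 array. It was 1.60 ± 0.041 (SD, n = 4) in S0, 1.46 ± 0.0042 in S4 and 1.64 ± 0.066 in S24. The 4 S4 arrays, from 1.46 to 1.47, lay below all S0 arrays, of which the lowest was 1.56. Nars2 and Wars2 had values on all S0 and S4 arrays, with higher means in S4. The fall is therefore smaller over the whole class, and the separation holds for these 14 genes only. In nsPEF the cytosolic mean was 4.16 ± 0.014, 4.36 ± 0.025 and 4.17 ± 0.073 at 0, 4 and 24 h, and the mitochondrial mean was 1.54 ± 0.030, 1.37 ± 0.016 and 1.65 ± 0.032. The 4 E4 arrays, from 1.36 to 1.39, lay below all E0 arrays, of which the lowest was 1.52. The difference between the class means, whose size at any single time depends on the probes and has no reading of its own, widened from 2.60 ± 0.065 in S0 to 2.92 ± 0.052 in S4 and was 2.43 ± 0.034 in S24. It was 2.61 ± 0.020, 2.99 ± 0.017 and 2.52 ± 0.044 in nsPEF.

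**Figure D1:**
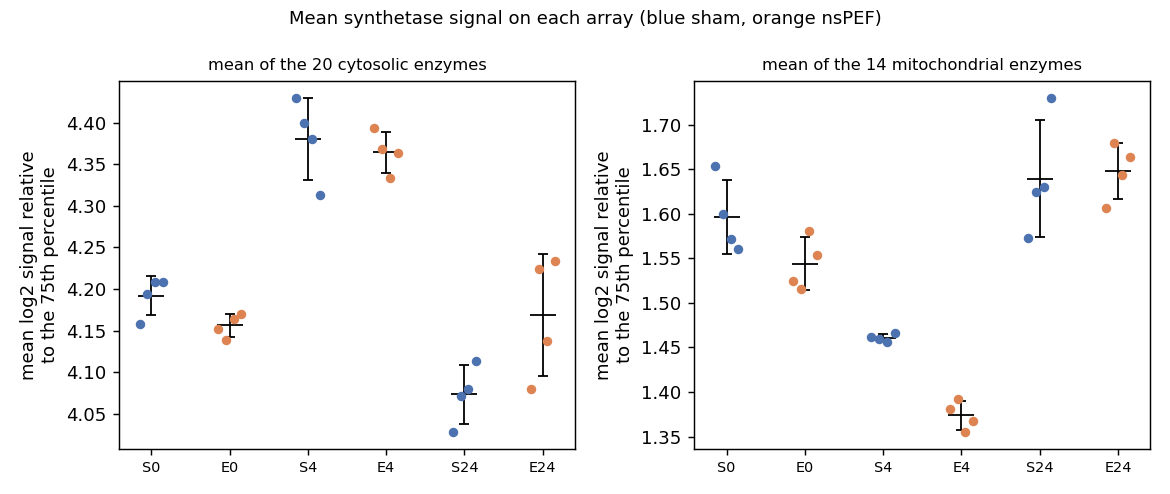
Mean log2 signal relative to the 75th percentile over the 20 cytosolic synthetases (left) and the 14 mitochondrial synthetases with a value on every array (right), by group, with sham in blue and nsPEF in orange. Points are arrays and the marks with bars are the mean and SD of 4 arrays. The cytosolic mean went from 4.19 to 4.38 between 0 h and 4 h in sham and from 4.16 to 4.36 in nsPEF, and the mitochondrial mean from 1.60 to 1.46 and from 1.54 to 1.37.

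Among the cytosolic genes Farsa (chr8:84856969-84869257), which encodes the catalytic subunit of phenylalanyl-tRNA synthetase, rose by 0.93 on the log2 scale (SE 0.061, adjusted p = 4.16e-11), to 1.91 times its 0 h level. It was at 4.26, 4.28, 4.38 and 4.44 on the S0 arrays, at 5.31, 5.27, 5.26 and 5.25 on the S4 arrays and at 4.41, 4.46, 4.62 and 4.63 on the S24 arrays. The S4 arrays stood apart from those of both other times. All of its 3 tested probes rose, by 0.80 to 0.93. Farsb, the other subunit of that enzyme, rose by 0.32 (SE 0.068, adjusted p = 0.000355).

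Rars (chr11:35808381-35834528), the arginyl enzyme and a member of the complex, rose by 0.83 (SE 0.073, adjusted p = 4.09e-09). Its S0 arrays were at 4.47, 4.56, 4.35 and 4.57, its S4 arrays at 5.41, 5.38, 5.37 and 5.13, and its S24 arrays at 4.49, 4.51, 4.55 and 4.42. The S4 array of replicate 4 was the lowest of its group and still lay above every S0 and S24 array. The difference between 24 h and 0 h was 0.01 (SE 0.073, adjusted p = 0.968).

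Nars (chr18:64499655-64516515), the asparaginyl enzyme, rose by 0.65 (SE 0.071, adjusted p = 9.74e-08) and then fell by 0.84 from 4 h to 24 h (adjusted p = 2.9e-09). It was at 3.59, 3.55, 3.56 and 3.72 in S0, at 4.41, 4.25, 4.22 and 4.12 in S4 and at 3.39, 3.45, 3.45 and 3.37 in S24. Every S24 array was therefore below every S0 array, with a difference of -0.19 between 24 h and 0 h (adjusted p = 0.0431). This difference was no longer called without S0 replicate 1, 3 or 4, without any 1 of the 4 S24 arrays, without E0 replicate 3 or without S4 replicate 2 (differences from -0.20 to -0.15, adjusted p = 0.0503 to 0.139). Other settings also ended the call, among them quantile normalization (-0.13, adjusted p = 0.1), normexp background correction (-0.17, adjusted p = 0.0893) and values centred by row (-0.17, adjusted p = 0.138). With arrays scaled on spike-in RNA the difference was reversed and called (0.51, adjusted p = 0.000207).

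Tars (chr15:11383663-11399658), the threonyl enzyme, rose by 0.61 (SE 0.058, adjusted p = 1.44e-08). Its values were 4.86, 5.01, 4.89 and 4.91 in S0, 5.52, 5.54, 5.45 and 5.59 in S4 and 4.72, 4.71, 4.75 and 4.83 in S24, and the 3 groups did not overlap. The Tars difference between 24 h and 0 h, -0.17 (adjusted p = 0.0293), was lost in several settings. Among them were quantile normalization (-0.07, adjusted p = 0.417) and normexp background correction (-0.13, adjusted p = 0.128). With arrays scaled on spike-in RNA it was reversed and called (0.53, adjusted p = 7.05e-07). Hars (chr18:36766528-36783205), the histidyl enzyme, rose by 0.34 (SE 0.08, adjusted p = 0.00117) and fell by 0.64 from 4 h to 24 h (adjusted p = 8.43e-07). It was at 2.60, 2.59, 2.75 and 2.73 in S0, at 3.08, 3.14, 2.95 and 2.85 in S4 and at 2.28, 2.39, 2.34 and 2.45 in S24, again without overlap. Wars, Cars, Aars, Yars and Kars, the enzymes for tryptophan, cysteine, alanine, tyrosine and lysine, rose by 0.54, 0.30, 0.21, 0.20 and 0.18, with adjusted p from 3.26e-08 to 0.0249. The S0 and S4 arrays of Aars overlapped, and its rise was not called with the percentile taken over probes detected on all arrays (0.091, adjusted p = 0.218), with values centred by row (0.12, adjusted p = 0.074) or without replicate number 1 or 2 in all groups (0.17 and 0.15, adjusted p = 0.0734 and 0.105).

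The cytosolic genes that fell at 4 h were Mars1, Vars, Lars, Eprs and Qars. Mars1, which encodes the methionyl enzyme that also charges the initiator tRNA, fell by 0.52 (SE 0.047, adjusted p = 5.55e-09). Vars, the valyl enzyme, fell by 0.40 (SE 0.076, adjusted p = 0.000138). Lars, Eprs and Qars, the leucyl, glutamyl-prolyl and glutaminyl enzymes, fell by 0.19, 0.18 and 0.10, with adjusted p from 0.00333 to 0.0375. Gars, Dars, Sars and Iars were not called, with log2 differences from -0.06 to 0.14.

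The members of the multi-synthetase complex did not move as one. The counts here and for the ATF4 list below stand beside 30.8% of all genes tested that rose and 34.6% that fell. Of its 8 enzymes 2 rose (Rars and Kars), 4 fell (Mars1, Lars, Eprs and Qars) and 2, Iars and Dars, were not called, with a median log2 difference of -0.07. Of its 3 scaffold genes Eef1e1 rose by 1.59 (adjusted p = 2.03e-13), Aimp2 rose by 1.06 (adjusted p = 3.94e-12) and Aimp1 had a difference of 0.01 (adjusted p = 0.935). The 13 cytosolic enzymes that are often listed as ATF4 targets included 6 that rose and 4 that fell, with a median of 0.14, and the 7 other cytosolic enzymes included 5 that rose and 1 that fell, with a median of 0.32.

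Among the mitochondrial genes Fars2 (chr13:36117428-36537595), the mitochondrial phenylalanyl enzyme, fell by 1.10 (SE 0.058, adjusted p = 1.44e-12), while Farsa, for the same amino acid, rose. Its arrays read 2.94, 3.06, 2.87 and 2.89 in S0, 1.97, 1.82, 1.85 and 1.74 in S4 and 2.43, 2.50, 2.45 and 2.57 in S24. At 24 h it was between its earlier levels, with a difference from 0 h of -0.45 (SE 0.058, adjusted p = 4e-06).

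Lars2 (chr9:123366927-123462675), the mitochondrial leucyl enzyme, fell by 0.90 (SE 0.045, adjusted p = 6.25e-13). It was at 1.49, 1.41, 1.47 and 1.51 in S0, at 0.55, 0.61, 0.60 and 0.53 in S4 and at 1.45, 1.45, 1.61 and 1.56 in S24. The S0 and S24 arrays overlapped, and their difference of 0.05 was not called (adjusted p = 0.472). A second, dimmer Lars2 probe fell by 0.93 at 4 h (adjusted p = 2.66e-05). Vars2, Sars2, Rars2, Tars2, Iars2, Aars2 and Ears2 fell by 0.74, 0.62, 0.45, 0.35, 0.31, 0.23 and 0.22, with adjusted p from 2.29e-10 to 0.000761.

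Mars2, Yars2 and Wars2, for methionine, tyrosine and tryptophan, rose against the trend of their class. Yars2 (chr16:16302965-16309640) rose by 1.35 (SE 0.048, adjusted p = 3.17e-15), to 2.54 times its 0 h level. Its values were 3.43, 3.45, 3.46 and 3.46 in S0, 4.88, 4.82, 4.72 and 4.77 in S4 and 3.77, 3.71, 3.74 and 3.84 in S24. The groups did not overlap, and at 24 h Yars2 stayed 0.31 above 0 h (SE 0.048, adjusted p = 3.3e-05).

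Mars2 (chr1:55237177-55240058), which was read by a dim probe, rose by 1.57 (SE 0.21, adjusted p = 1.23e-06). It was at -1.97, -3.23, -3.07 and -3.41 in S0, at -1.48, -1.36, -1.30 and -1.26 in S4 and at -3.16, -2.81, -2.77 and -3.11 in S24. Replicate 1 of S0 stood above the others of its group by more than 1, and without it the rise was 1.89 (adjusted p = 6.29e-11). With normexp background correction the rise was 0.75 (adjusted p = 4.72e-06). In nsPEF, which shares no array with sham, the rise from 0 h to 4 h was 2.00.

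Wars2 (chr3:99140107-99221230) rose by 0.74 (SE 0.11, adjusted p = 8.55e-06) on its brighter probe, printed in row 1 of spots of the array, and fell by 0.86 from 4 h to 24 h (adjusted p = 1.29e-06). That probe was at -1.44, -1.43, -1.51 and -1.50 in S0, at -0.95, -0.90, -0.71 and -0.37 in S4 and at -1.72, -1.72, -1.45 and -1.49 in S24. In nsPEF it was at -1.18, -1.45 and -1.41 in E0, where the spot of replicate 1 was marked and left out, at -0.83, -0.63, -0.65 and -0.76 in E4 and at -1.44, -1.14, -1.43 and -1.43 in E24. The 4 h arrays stood above those of both other times in each arm. The other Wars2 probe gave -0.14 at 4 h against 0 h in sham (adjusted p = 0.29), and with the mean of both probes the rise was 0.30 and not called (adjusted p = 0.0936).

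Hars2 was also called higher at 4 h, by 0.16 (adjusted p = 0.0158). The 3 probes of Hars2 gave values from -0.02 to 0.27, and 2 of them rose. Of the 20 synthetase genes with several tested probes, 14 had the same call on every probe in this comparison, and the others were Ears2, Eprs, Hars2, Qars, Tars2 and Wars2. None of the 20 genes had probes called in both directions here. Pars2, Cars2 and Nars2 were not called, with log2 differences of -0.11, 0.06 and 0.43.

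**Figure D2:**
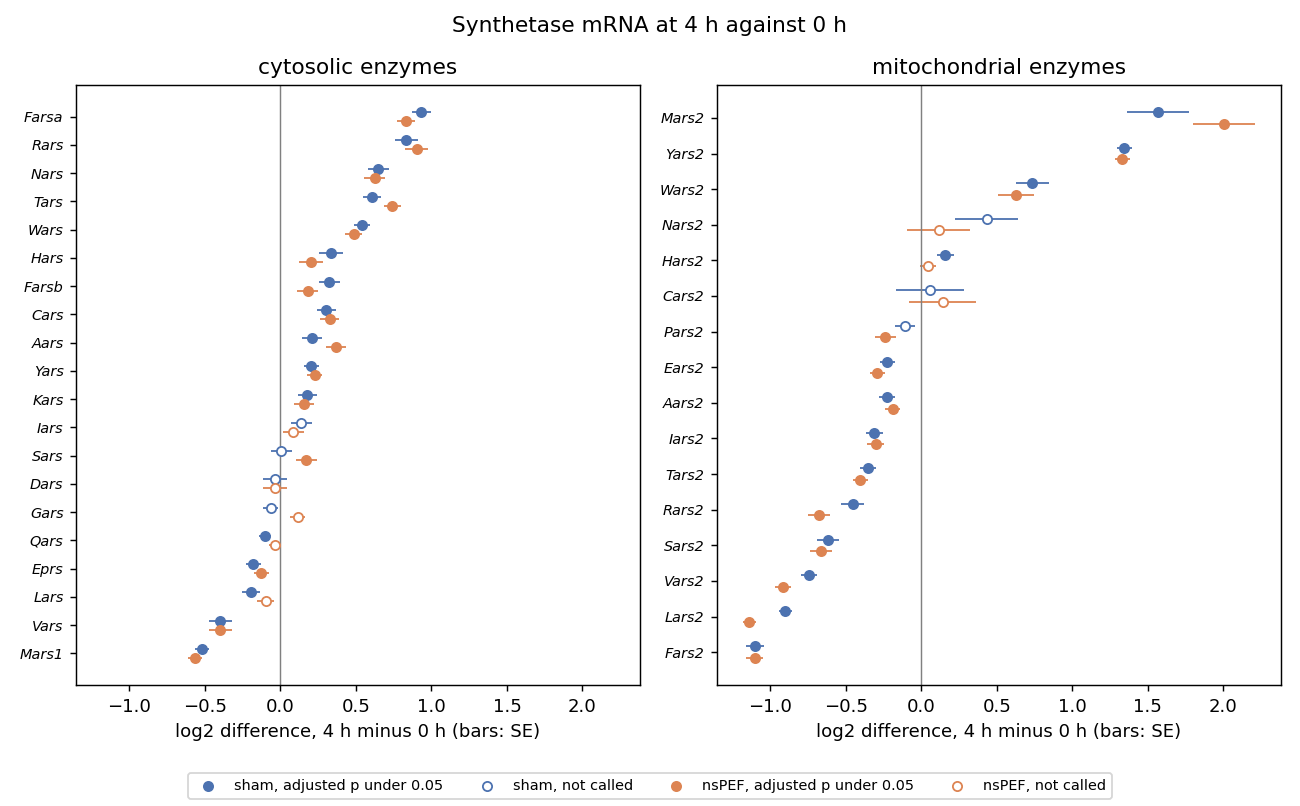
Log2 difference between 4 h and 0 h for each of the 20 cytosolic (left) and 16 mitochondrial (right) synthetases, in sham (blue) and nsPEF (orange), ordered by the sham value. Bars are standard errors, filled points have an adjusted p under 0.05 and open points do not. The cytosolic genes run from Mars1 at -0.52 to Farsa at 0.93 in sham and the mitochondrial genes from Fars2 at -1.10 to Mars2 at 1.57.

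For 14 amino acids a cytosolic and a mitochondrial enzyme could be set side by side, with Farsa taken for phenylalanine. In 4 of these pairs, for alanine, phenylalanine, arginine and threonine, the cytosolic gene rose and the mitochondrial gene fell at 4 h. In 1 pair, for methionine, Mars1 fell by 0.52 and Mars2 rose by 1.57. In 5 pairs both genes moved the same way. Those for histidine, tryptophan and tyrosine rose together and those for leucine and valine fell together. In the remaining 4 pairs, for cysteine, isoleucine, asparagine and serine, at least 1 gene was not called. Of these, the seryl pair had a difference of -0.62 for Sars2 and 0.00 for Sars.

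The change between 0 and 4 h was largely undone by 24 h. All 11 cytosolic genes that rose in sham at 4 h fell again from 4 h to 24 h, and 3 of the 5 that fell rose again. All 9 mitochondrial genes that fell at 4 h rose again, and all 4 that rose fell again. In all, 3 cytosolic genes rose and 14 fell from 4 h to 24 h, and 9 mitochondrial genes rose and 4 fell, beside 31.7% and 33.8% of all genes tested that rose and fell. The 2 comparisons share the S4 arrays, and of all genes tested that rose in sham at 4 h 84.8% fell again, while 75% of those that fell rose again. At 24 h against 0 h 1 cytosolic gene was higher (Farsa, by 0.19) and 9 were lower, and 4 mitochondrial genes were higher and 2 lower, beside 15.7% and 22.8% of all genes tested. The Farsa call rests on its brightest probe, since the other probes gave 0.007 and 0.09 (adjusted p = 0.942 and 0.509) and the mean of all of them gave 0.093 (adjusted p = 0.24). It was also lost without S0 replicate 1 or 2 or S24 replicate 3 or 4 (adjusted p from 0.0641 to 0.075). The median log2 difference between 24 h and 0 h was -0.11 for the cytosolic class, 0.04 for the mitochondrial class and -0.02 over all genes tested.

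The spike-in RNA gave a different zero line. When arrays were scaled on it, the median over all tested probes was 0.70 higher at 24 h than at 0 h in sham and 0.66 higher at 24 h than at 4 h, but only 0.04 higher at 4 h than at 0 h. On that scale all 20 cytosolic and all 16 mitochondrial genes were called higher at 24 h than at 0 h, with medians of 0.59 and 0.74. From 4 h to 24 h 11 cytosolic genes were called higher and 0 lower, with a median of 0.29 that lay below the shift of all probes, and 13 mitochondrial genes were higher and 3 lower, with a median of 1.02 that lay above it. From 0 h to 4 h it gave 11 cytosolic genes that rose and 2 that fell, and 5 mitochondrial genes that rose and 8 that fell. The share of all genes called was not taken on this scale, so these counts cannot be read as a trait of the synthetases. Statements on 24 h are relative to the bulk of the probes. At 4 h the cytosolic genes more often rose and the mitochondrial genes more often fell on both scales.

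The nsPEF arm, on other arrays of the same slides, was compared with its own 0 h arrays. From 0 h to 4 h 12 cytosolic genes rose and 3 fell, and 3 mitochondrial genes rose and 10 fell, beside 34.8% and 33% of all genes tested. Higher in both arms were 11 cytosolic and 3 mitochondrial genes, lower in both were 3 and 9, and 0 genes were called in opposite directions. Called in 1 arm only were 3 cytosolic genes (Lars and Qars, lower in sham, and Sars, higher in nsPEF by 0.17) and 2 mitochondrial genes (Hars2, higher in sham, and Pars2, lower in nsPEF by 0.24). Lars2 fell by 1.14, Fars2 by 1.10 and Vars2 by 0.92, and Yars2 rose by 1.33, Rars by 0.90, Farsa by 0.83 and Tars by 0.74. From 4 h to 24 h 2 cytosolic genes rose and 12 fell and 10 mitochondrial genes rose and 3 fell, beside 31.7% of all genes tested in each direction. At 24 h against 0 h 2 cytosolic genes were higher and 4 lower and 5 mitochondrial genes were higher and 4 lower, beside 24.3% and 21.5%. In this last comparison the 2 Lars2 probes were called in opposite directions (-0.12 and 0.85), so the count of 4 lower, which takes the brightest probe of each gene, holds Lars2 on that probe only.

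**Figure D3:**
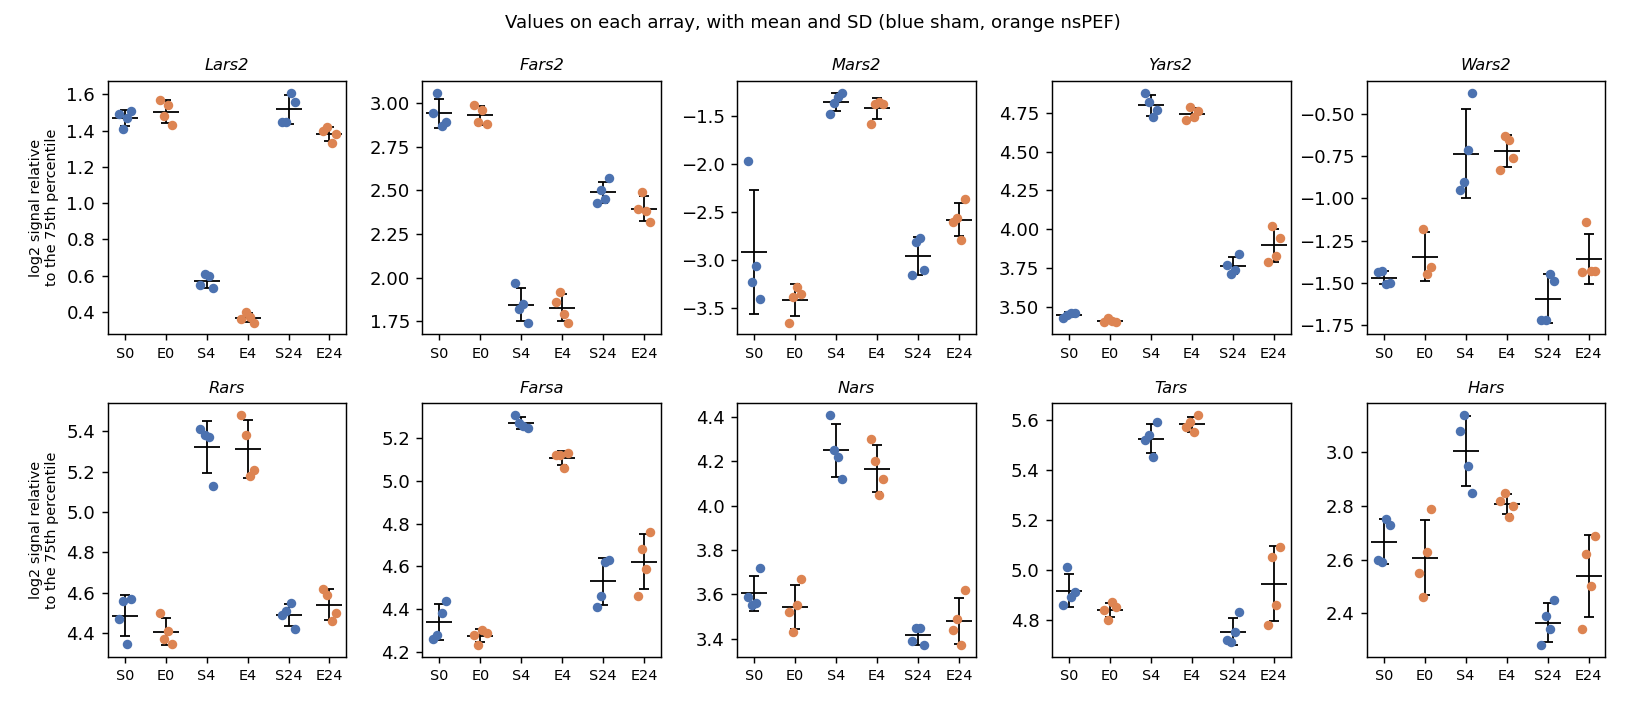
Log2 signal relative to the 75th percentile on each array for the 5 mitochondrial (top) and 5 cytosolic (bottom) synthetases with the largest called time differences in sham, by group, with sham in blue and nsPEF in orange. Points are arrays and the marks with bars are the mean and SD of 4 arrays (3 for Wars2 in E0). Lars2 and Fars2 are lowest at 4 h and the other 8 genes are highest at 4 h, in both arms.

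The genes that work beside the synthetases moved both ways. The counts below stand beside 30.8% of all genes tested that rose and 34.6% that fell, so mixed directions are not particular to these genes. Of 10 genes for mitochondrial charging and decoding 4 rose and 3 fell from 0 h to 4 h in sham. Gatb, a subunit of the amidotransferase that completes glutaminyl-tRNA in mitochondria, fell by 0.94 (adjusted p = 1.54e-11), whereas Qrsl1, another subunit, rose by 0.69 (adjusted p = 1.56e-08) and Mtfmt, which formylates the initiator tRNA, rose by 0.60 (adjusted p = 2.05e-07). Of 10 genes for mitochondrial tRNA maturation 4 rose and 2 fell. Trmt10c, a subunit of mitochondrial RNase P, rose by 1.56 (adjusted p = 5.18e-14), Elac2, which trims the 3′ end, rose by 1.26 (adjusted p = 4.73e-14) and Trnt1, which adds the CCA end, rose by 1.02 (adjusted p = 1.51e-08). Of 9 cytosolic tRNA partners 2 rose and 5 fell. Xpot, the exporter of tRNA from the nucleus, rose by 0.55 (adjusted p = 2.99e-09) and Dtd2, a deacylase that removes mischarged amino acids, fell by 1.22 (adjusted p = 5.93e-13).

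The 7 stress regulators were examined in both arms. In sham 5 of them fell from 0 h to 4 h and 0 rose, beside 34.6% and 30.8% of all genes tested. Among those that fell were Eif2ak4, the kinase that senses uncharged tRNA, by 0.60 (adjusted p = 2.36e-10) and Chac1, an ATF4 target, by 0.51 (adjusted p = 8.19e-07). Atf4 itself had a difference of -0.11 (adjusted p = 0.412) and Asns, asparagine synthetase, one of 0.08 (adjusted p = 0.373). The median was -0.46. In nsPEF 3 fell and 1 rose (Asns, by 0.28, adjusted p = 0.00195), beside 33% and 34.8% of all genes tested. The median there was 0.02, with Atf4 at 0.14 (adjusted p = 0.283) and Chac1 at 0.05 (adjusted p = 0.482). At 24 h all 7 were lower than at 0 h in both arms, beside 22.8% of all genes tested in sham and 21.5% in nsPEF. Their median log2 differences, relative to the bulk of the probes, were -0.65 in sham and -0.54 in nsPEF.

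Promoter sequence was looked at because ATF4 and several growth and mitochondrial factors are known to bind short motifs near synthetase genes. RefSeq promoters of 300 bases (250 before and 50 after a start, build GRCm38.p6) were searched for 27 of the 36 genes. They made 13 cytosolic and 15 mitochondrial windows, since Aars2 has 2. No window was searched for Cars, Hars, Lars, Nars, Rars, Vars, Wars, Hars2 and Pars2, so the motif counts below leave these genes out. The ATF4-type element TGATGNAA, on either strand, was present in 5 of the 13 cytosolic windows (Aars, Gars, Iars, Tars and Yars) and in 0 of the 15 mitochondrial windows, against 3.97% of all 32851 promoters listed. The E-box CACGTG was in 4 cytosolic windows (Aars, Farsb, Iars and Tars) and 1 mitochondrial window (Ears2), against 7.15% of all. The NRF1-type word CGCATGCG was in 0 cytosolic and 2 mitochondrial windows (Vars2 and Wars2), against 1.87% of all. No 2 of these motifs overlap in the windows printed. The 200 bases before the start are given for Aars and Gars, which differed between nsPEF and sham, for Tars, which rose at 4 h, and for Vars2, which fell and holds the NRF1-type word at 2 places. Capitals mark the motifs. The positions are chr8:111033642-111033841 and chr6:55037801-55038000 on the plus strand, and chr15:11399659-11399858 and chr17:35667593-35667792 on the minus strand. The start is that of the listed promoter and need not be the edge of the gene span. The Aars window lies inside the Aars span, chr8:111027778-111055569. The Vars2 window overlaps the end of the Vars2 span, chr17:35655634-35667639.
Aars: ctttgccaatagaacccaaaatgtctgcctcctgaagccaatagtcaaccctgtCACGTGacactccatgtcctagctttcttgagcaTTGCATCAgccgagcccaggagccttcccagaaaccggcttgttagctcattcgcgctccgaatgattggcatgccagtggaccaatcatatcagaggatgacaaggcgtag
Gars: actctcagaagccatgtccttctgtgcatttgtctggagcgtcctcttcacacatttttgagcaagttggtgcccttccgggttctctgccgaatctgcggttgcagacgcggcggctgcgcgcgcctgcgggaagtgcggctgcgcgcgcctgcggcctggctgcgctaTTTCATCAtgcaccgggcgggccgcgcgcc
Tars: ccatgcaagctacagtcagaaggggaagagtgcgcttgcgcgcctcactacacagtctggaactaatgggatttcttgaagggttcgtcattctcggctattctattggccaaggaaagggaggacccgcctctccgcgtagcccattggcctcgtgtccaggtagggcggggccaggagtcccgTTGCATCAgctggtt
Vars2: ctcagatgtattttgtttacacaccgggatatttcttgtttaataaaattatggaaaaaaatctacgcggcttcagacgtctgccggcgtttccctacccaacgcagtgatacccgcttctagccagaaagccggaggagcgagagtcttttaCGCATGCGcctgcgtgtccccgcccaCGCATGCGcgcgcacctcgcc
In Aars the capitals are an E-box followed by an ATF4-type element, in Gars and Tars an ATF4-type element close to the start, and in Vars2 the NRF1-type word. A match is a description of these letters and not a bound site.

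The second question was what nsPEF changed. At 0 h, 0 of the 36 synthetases were called, beside 0.0356% of all genes tested that were higher and 0.0653% that were lower. With limma at an unadjusted p under 0.05, 1 cytosolic and 1 mitochondrial gene passed, beside 1427 of the 16842 genes tested. An analysis of variance without moderation called 0 of each. At 4 h 1 cytosolic gene (Gars) was higher and 1 mitochondrial gene (Lars2) was lower, beside 1.69% and 2.35% of all genes. At 24 h 2 cytosolic genes (Aars and Wars) were higher and 0 mitochondrial genes were called, beside 2.76% of all genes higher and 2.98% lower. An unmoderated analysis of variance called 1 mitochondrial gene. At an unadjusted p under 0.05, 4 of the 16 mitochondrial genes passed, beside 4189 of the 16842 genes tested. Single arrays decided the cytosolic count at 24 h. Without E24 replicate 1 there were 8 calls, without S24 replicate 4 there were 5, and without S24 replicate 1, 2 or 3 or E24 replicate 2 or 4 there were 0. Over all time points together Aars and Gars were higher and Lars2 lower, beside 4.01% and 6.04% of all genes. The sizes of these differences were below those of the larger time differences.

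Lars2 was lower in nsPEF at 4 h by 0.21 (difference -0.21, SE 0.045, adjusted p = 0.0188). The E4 arrays were at 0.36, 0.40, 0.37 and 0.34, all below the S4 arrays given above. At 0 h the groups overlapped, with E0 arrays at 1.57, 1.48, 1.54 and 1.43 and a difference of 0.03 (adjusted p = 0.895). At 24 h the E24 arrays, at 1.40, 1.42, 1.33 and 1.38, lay below those of S24 with a difference of -0.14 that was not called (adjusted p = 0.0846). The probe lies in row 377 of the 384 rows of spots, and with values centred by row the 4 h difference was -0.15 (adjusted p = 0.0793). It stayed called without any single array (adjusted p from 0.0188 to 0.0491). It was -0.03 with spike-in scaling (adjusted p = 0.781) and was not called with the mean of both probes (-0.25, adjusted p = 0.0609), with the percentile taken over probes detected on all arrays (-0.15, adjusted p = 0.0675) or in the 8 arrays alone (-0.21, adjusted p = 0.115).

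Gars (chr6:55038001-55079504), the glycyl enzyme, was higher in nsPEF at 4 h by 0.19 (SE 0.05, adjusted p = 0.0403). The E4 arrays were at 7.46, 7.44, 7.44 and 7.45 and the S4 arrays at 7.34, 7.27, 7.30 and 7.11. The groups did not overlap. At 0 h the S0 arrays were at 7.31, 7.31, 7.39 and 7.27 and the E0 arrays at 7.35, 7.39, 7.29 and 7.30. At 24 h the S24 arrays, at 7.0, 7.03, 7.07 and 7.07, lay below the E24 arrays, at 7.08, 7.28, 7.19 and 7.18, with a difference of 0.14 that was not called (adjusted p = 0.111). The 4 h difference was 0.04 with quantile normalization (adjusted p = 0.705), 0.09 with normexp background correction (adjusted p = 0.184) and 0.36 with spike-in scaling (adjusted p = 0.00753), and it was not called in the 8 arrays alone (0.19, adjusted p = 0.206), with the marked spots kept or with the deposited log2 values (both 0.17, adjusted p = 0.0539 and 0.0542). Leaving out 1 array ended the call for 11 arrays (S0 replicate 1, S4 replicates 2, 3 and 4, E4 replicates 1, 2, 3 and 4 and S24 replicates 1, 2 and 3), with adjusted p from 0.0503 to 0.0828 and differences from 0.14 to 0.21.

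Aars (chr8:111027778-111055569), the alanyl enzyme, was higher in nsPEF at 24 h by 0.25 (SE 0.066, adjusted p = 0.0367). The S24 arrays were at 5.76, 5.76, 5.75 and 5.91 and the E24 arrays at 5.87, 6.19, 5.99 and 6.12, so that 1 array of each group overlapped. At 4 h the E4 arrays, at 6.35, 6.31, 6.30 and 6.32, lay above the S4 arrays, at 6.24, 6.25, 6.17 and 6.00, with a difference of 0.16 that was not called (adjusted p = 0.186). At 0 h the S0 arrays were at 5.93, 5.89, 6.00 and 6.01 and the E0 arrays at 5.97, 6.01, 5.86 and 5.95. The 24 h call was lost without S24 replicate 1, 2 or 3 or E24 replicate 2 or 4 (adjusted p = 0.092 to 0.131, differences from 0.20 to 0.24). It was also lost with spike-in scaling (0.16, adjusted p = 0.257), with the marked spots kept or the deposited log2 values (both 0.21, adjusted p = 0.054 and 0.0538) and in the 8 arrays alone (0.25, adjusted p = 0.17).

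Wars (chr12:108860030-108894175), the tryptophanyl enzyme, which is also known as an interferon-induced gene, was higher in nsPEF at 24 h by 0.20 (SE 0.055, adjusted p = 0.0407). The S24 arrays were at 4.07, 4.02, 4.15 and 4.15 and the E24 arrays at 4.27, 4.43, 4.21 and 4.30, without overlap. At 4 h the S4 arrays were at 4.76, 4.73, 4.72 and 4.63 and the E4 arrays at 4.62, 4.68, 4.56 and 4.63, with a difference of -0.09 that was not called (adjusted p = 0.363). At 0 h the S0 arrays were at 4.11, 4.17, 4.13 and 4.27 and the E0 arrays at 4.19, 4.03, 4.12 and 4.21. A dimmer Wars probe gave 0.08 at 24 h (adjusted p = 0.63). The 24 h call was lost without S4 replicate 3, S24 replicate 1, 2 or 3 or E24 replicate 2 or 4 (adjusted p = 0.0505 to 0.145, differences from 0.16 to 0.22) and in 7 of 14 other settings, among them the 8 arrays alone (0.20, adjusted p = 0.161), spike-in scaling (0.12, adjusted p = 0.379) and the mean of both probes (0.14, adjusted p = 0.155).

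**Figure D4:**
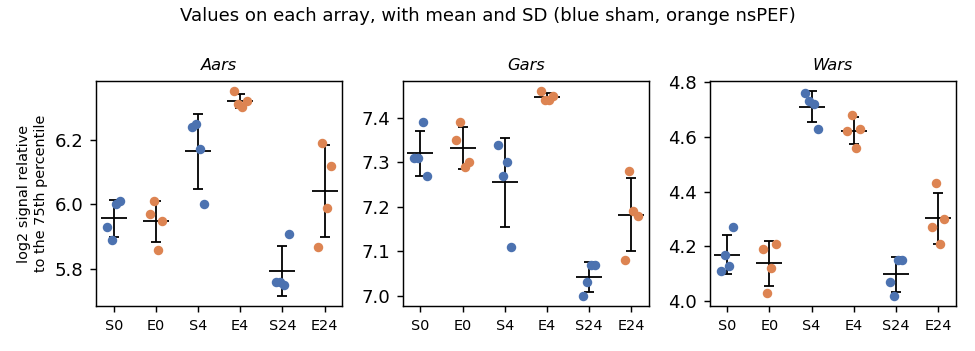
Log2 signal relative to the 75th percentile on each array for the 3 cytosolic synthetases called higher in nsPEF, by group, with sham in blue and nsPEF in orange. Points are arrays and the marks with bars are the mean and SD of 4 arrays. Gars differed by 0.19 at 4 h and Aars and Wars by 0.25 and 0.20 at 24 h.

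For each of these 4 genes the test of a treatment effect that differs with time did not pass. By limma's interaction test 0 cytosolic and 0 mitochondrial genes were called, beside 0.428% of all genes tested. At an unadjusted p under 0.05, 6 and 3 passed, beside 2997 of the 16842 genes tested. A time point at which a synthetase differed between nsPEF and sham was thus not shown to differ from the others. Among all 20 cytosolic genes the log2 differences between nsPEF and sham ran from -0.12 to 0.06 at 0 h, from -0.22 to 0.19 at 4 h and from -0.06 to 0.25 at 24 h, with medians of -0.03, -0.02 and 0.08. The medians over all genes tested were -0.04, -0.02 and 0.01. Among the 16 mitochondrial genes they ran from -0.50 to 0.25, from -0.25 to 0.08 and from -0.14 to 0.38, with medians of -0.01, -0.07 and -0.01. The ends of the ranges at 0 h and 24 h belong to the dim probes of Mars2 and Nars2, apart from Lars2 at the low end of 24 h.

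**Figure D5:**
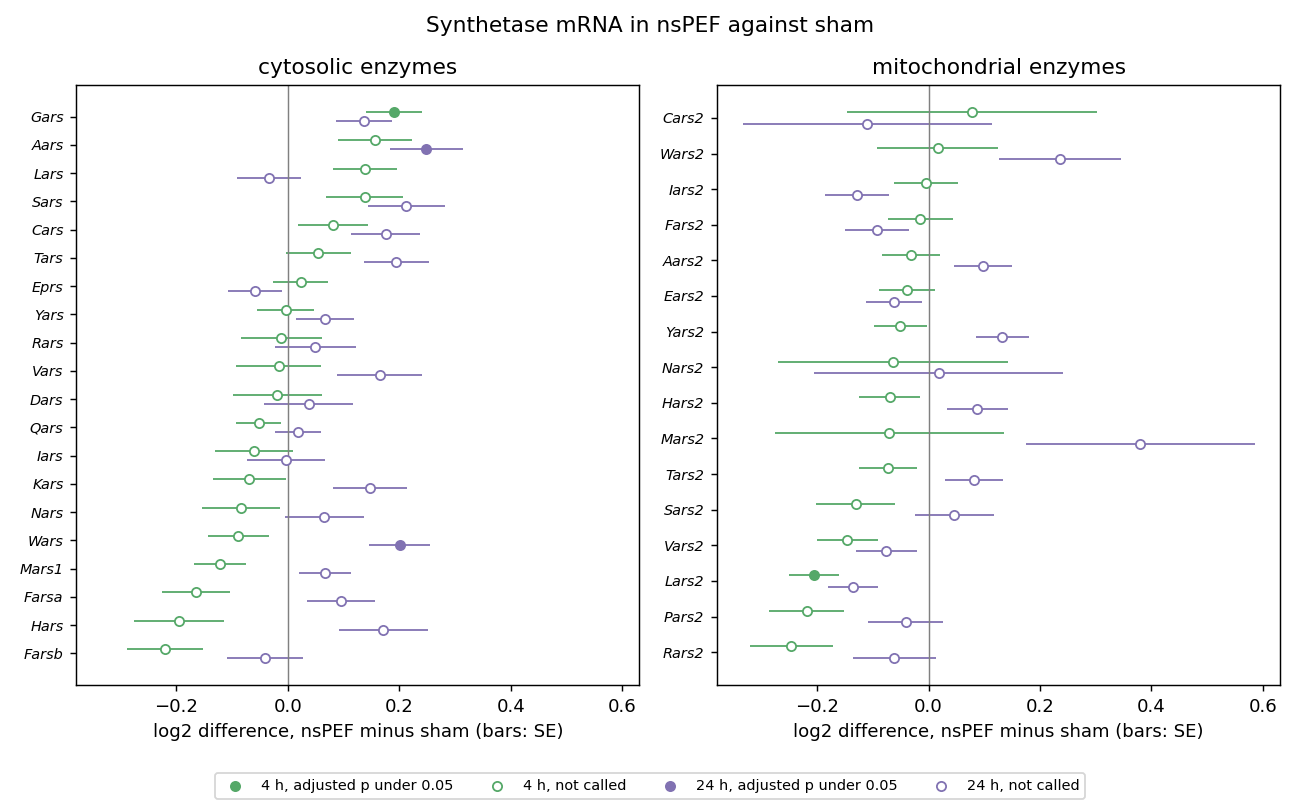
Log2 difference between nsPEF and sham at 4 h (green) and 24 h (purple) for each of the 20 cytosolic (left) and 16 mitochondrial (right) synthetases, ordered by the 4 h value. Bars are standard errors, filled points have an adjusted p under 0.05 and open points do not. The filled points are Gars (0.19) and Lars2 (-0.21) at 4 h and Aars (0.25) and Wars (0.20) at 24 h.

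Of the 7 stress regulators Chac1 and Trib3, both known ATF4 targets, were higher in nsPEF at 4 h, by 0.43 (adjusted p = 0.00248) and 0.41 (adjusted p = 0.0145), and Atf4 differed by 0.23 (adjusted p = 0.233). At 24 h Eif2ak4 was lower (difference -0.20, adjusted p = 0.0159). Of the 13 cytosolic enzymes often listed as ATF4 targets, Gars at 4 h and Aars and Wars at 24 h were the called members, and the median differences were 0.02 and 0.14. Of the genes beside the mitochondrial enzymes Gtpbp3, which modifies mitochondrial tRNAs, was lower at 4 h (difference -0.22, adjusted p = 0.0278) and Tufm, the mitochondrial elongation factor, was higher at 24 h (0.20, adjusted p = 0.0455). Tarsl2, a gene akin to Tars, was lower at 24 h (difference -0.18, adjusted p = 0.0417). The symbol rule does not take Tarsl2, which was counted among the cytosolic tRNA partners. From 0 h to 4 h Tarsl2 fell by 0.48 in sham and 0.59 in nsPEF (adjusted p = 5.54e-08 and 2.38e-09), whereas Tars rose. Among further probes of the synthetases, a dimmer probe of Farsa was higher in nsPEF at 24 h (0.19, adjusted p = 0.0414), where the brightest gave 0.10 (adjusted p = 0.372). A dimmer probe of Farsb was lower at 4 h (difference -0.30, adjusted p = 0.0458) and over all times (-0.16, adjusted p = 0.039), where the brightest gave -0.22 and -0.11 (adjusted p = 0.0763 and 0.078). A dimmer probe of Rars2 was lower over all times (-0.11, adjusted p = 0.0348), where the brightest gave -0.11 (adjusted p = 0.11). The 3 scaffold genes were not called at any of the times.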

How the data were processed

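RNA from TM3 cells was hybridised to 24 one-colour Agilent arrays, and samples were grouped by their labels. The submitters' processing notes name Agilent Feature Extraction 12.0. The deposited scanner text gives, for each spot, a processed intensity in arbitrary units after the authors' software had corrected the background, with no scaling between arrays. A deposited value table holds log2 values, which the authors shifted to each array's 75th percentile and set against a median baseline. It served as an alternative, and 0 of its columns were left without a sample.

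Spots flagged as outliers were removed, spots of a probe were averaged, and each array's 75th percentile over 56605 probes was subtracted after log2. Saturated spots numbered 0. A probe was tested (37684) where it was well above background on at least 2 of 4 arrays of any group. RefSeq symbols were found by accession for 34566 probes (61.1%), and a gene is represented by its tested probe with the highest mean. With limma 3.58.1 in R 4.3.3, 6 group means were fitted to all 24 arrays, and Benjamini-Hochberg adjustment ran over the tested probes at 0.05. This replaced the two-way analysis of variance that the methods name, which was run as an alternative. P values measure the spread between these replicates. The scripts were tested on simulated data. Promoter motifs were searched with Python 3.11.15.

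Array values are given for up to 8 members with the smallest adjusted p among those called for nsPEF against sham, and for the 5 members of each class with the largest called time difference in sham. All 36 members reported may be named. A further item that the symbol rule finds is not reported here and entered no count or mean of the members. The members, lists and tests were chosen with earlier results of these data known. Other scalings, background corrections, filters, fits and left-out arrays were tried. Same-numbered replicates were not treated as pairs. The number of arrays limits precision, and their 75th percentile lay between 201.8 and 532.7 intensity units.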

Additional observations from a re-analysis of the deposited data

Results flagged for a closer look

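The 13 genes given array by array and both class means were examined in each group, 89 sets of 4 arrays in all, and 1 further set (Wars2 in E0) had 3 values and was not examined. In 4 of them 1 array lay far from the other 3 by Dixon's criterion, which flags about 1 set in 20 by chance. Aars on S24 replicate 4 was at 5.91, beside 5.75 to 5.76 on the others. Mars2 on E4 replicate 1 was at -1.58, beside -1.37 to -1.35. Wars2 on E24 replicate 2 was at -1.14, beside -1.44 to -1.43. Rars on S4 replicate 4 was at 5.13, beside 5.37 to 5.41.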

How the results depend on the processing

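The split between the classes at 4 h was kept in the 13 other settings that apply, with 8 to 12 cytosolic genes higher and 2 to 6 lower, and 2 to 5 mitochondrial genes higher and 8 to 10 lower in sham. The share of all genes called was not taken in the other settings, so the counts in this section have none beside them. Comparisons of nsPEF with sham and of 24 h with 0 h moved. Quantile normalization gave 0 cytosolic calls at 4 h, 0 mitochondrial calls over all times and 6 cytosolic calls for 24 h against 0 h in sham. Spike-in scaling gave 6 cytosolic and 0 mitochondrial calls at 4 h, 0 cytosolic at 24 h and 5 cytosolic over all times. It also gave 11 cytosolic calls for 24 h against 4 h in sham and, for 24 h against 0 h, 20 cytosolic and 16 mitochondrial calls in sham and 20 cytosolic and 14 mitochondrial calls in nsPEF. It turned the sham differences between 24 h and 4 h to 0.28 for Aars, 0.44 for Gars, 0.042 for Wars and 0.0125 for Hars. It turned those between 24 h and 0 h to 0.53 for Aars, 0.42 for Gars, 0.63 for Wars, 0.65 for Mars2, 0.24 for Fars2, 0.57 for Wars2, 0.51 for Nars, 0.53 for Tars and 0.39 for Hars. Where 1 array or 1 replicate number was left out, that difference ran from -0.21 to 0.34 for Mars2 (0.34 without replicate number 1 in all groups, adjusted p = 0.0393). The percentile over probes well above background on all arrays gave 0 mitochondrial calls at 4 h, 4 cytosolic and 0 mitochondrial over all times and 6 cytosolic for 24 h against 0 h in sham. Normexp gave 0 cytosolic and 2 mitochondrial at 4 h, 1 cytosolic at 24 h, 0 cytosolic and 2 mitochondrial over all times and 6 cytosolic for 24 h against 0 h in sham. No filter on dim probes gave 2 cytosolic and 3 mitochondrial at 4 h, 4 cytosolic and 2 mitochondrial over all times and 6 cytosolic for 24 h against 0 h in sham. Keeping marked spots and the deposited log2 values each gave 3 mitochondrial at 4 h, 0 cytosolic and 1 mitochondrial at 24 h and 3 mitochondrial over all times. The analysis of variance gave 1 mitochondrial call at 24 h. The mean of all probes gave 2 cytosolic at 4 h, 1 mitochondrial at 24 h and 1 mitochondrial in the interaction. Array weights gave 2 cytosolic and 3 mitochondrial at 4 h, 8 cytosolic and 2 mitochondrial at 24 h, 5 cytosolic and 3 mitochondrial over all times and 5 cytosolic in the interaction. Centring by row gave 1 cytosolic at 0 h, 5 at 4 h and 4 over all times, and the 8 arrays of a time alone gave 0 cytosolic and 0 mitochondrial at 4 h and 0 cytosolic at 24 h. The cause was not tested.

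Leaving out 1 array, or 1 replicate number in all groups, gave these ranges. Cytosolic calls were 0 at 0 h, 0 to 1 at 4 h, 0 to 8 at 24 h, 0 to 4 over all times and 0 to 1 in the interaction. Mitochondrial calls were 0 at 0 h, 0 to 2 at 4 h, 0 to 1 at 24 h, 0 to 2 over all times and 0 in the interaction. In sham, cytosolic calls were 10 to 17 for 4 h against 0 h, 16 to 17 for 24 h against 4 h and 3 to 11 for 24 h against 0 h, with 6 without S0 replicate 2 or S24 replicate 1. In nsPEF they were 11 to 16, 13 to 15 and 1 to 7, with 3 without E0 replicate 2. Mitochondrial calls were 12 to 14, 12 to 13 and 4 to 7 in sham and 12 to 14, 12 to 13 and 5 to 10 in nsPEF. The 4 nsPEF calls (Lars2, Gars, Aars and Wars) were each lost without any 1 replicate number. The labels do not say whether same-numbered replicates share a culture or day, and they were not treated as pairs. The paper states that nearly all tests of a biological replicate used the same cell suspension, without tying this to the replicate numbers. Of 60 same-numbered pairs, 0 correlated above 0.1 in their deviations from the group means (median r 0.019, against -0.006 for other numbers), and 14 of 24 arrays correlated best with their own number, a hint from the data only. With the replicate block each count stayed within 1.5 times, with 16 cytosolic and 13 mitochondrial calls at 4 h in sham. Wars at 24 h was no longer called (0.20, adjusted p = 0.0513) and Tars at 24 h was (0.19, adjusted p = 0.0424). Finding members by the gene name in the scanner text was not run, since that column is not in the text used here. Small differences of dim probes such as Mars2 and Nars2 are limited by their signal over background and by 4 arrays a group.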
